A study of Mus musculus with 6 samples.

Results

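The genes described here code for adaptors that carry signals away from immune receptors, either receptors with no signalling tail of their own (Tyrobp, Fcer1g and Hcst) or SLAM family receptors (the SAP family), with the kinase, scaffold, T cell adaptor and SLAM family receptor listed with them. They were picked by name with earlier results of these data in view, and all 10 symbols (Tyrobp, Fcer1g, Hcst, Syk, Clnk, Sh2d1a, Sh2d1b1, Sh2d1b2, Sh2d2a and Slamf7) had a row among the 34745 genes of each deposited file. Bulk RNA-seq was performed on 6 libraries of cultured splenic CD8+ effector T cells (Teff), 3 from wild-type (WT) mice and 3 from Scd-1-/- mice, which lack stearoyl-CoA desaturase 1 in the whole body. The question of the experiment was how loss of this fatty acid desaturase alters Teff. WT mice were purchased C57BL/6J and Scd-1-/- mice were donated B6.129-Scd1tm1Ntam/J, all male and 6 to 8 weeks old, and nothing states that they were littermates. Hence genotype and origin of the mice cannot be told apart. CD8+ cells of both genotypes were enriched from spleen with an isolation kit, stimulated with anti-CD3 (5 μg/mL), anti-CD28 (0.5 μg/mL) and IL-2 (100 U/mL) for 3 days, kept with IL-2 for another 3 days and harvested on day 6. The labels number the replicates but do not say whether they came from separate animals or cultures, so that a p-value measures only the spread between these samples.

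As background, an immunoreceptor tyrosine-based activation motif (ITAM) is a cytoplasmic stretch with a pair of spaced tyrosines. Once phosphorylated by a Src family kinase, the pair binds the tandem SH2 domains of Syk or Zap70, which then phosphorylate scaffolds such as SLP-76 and its relative Clnk. T cells signal through the ITAMs of the CD3 chains and Cd247, whereas NK cells and myeloid cells rely largely on Tyrobp (DAP12) and Fcer1g (the Fc receptor gamma chain), and Hcst (DAP10) uses another motif that recruits PI3K. SLAM family receptors instead bear switch motifs that are bound by small SH2 proteins, namely SAP (Sh2d1a), EAT-2 (Sh2d1b1) and, in mice, ERT (Sh2d1b2).

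Coding sequence that carries these motifs is shown first, because it is what separates the kinds of adaptor compared here. It was read from GENCODE M21 transcripts (GRCm38), 5′ to 3′ on the coding strand, and capitals mark the codon of each motif tyrosine. In Tyrobp the motif spanned codons 92 to 106 in coding exons 4 and 5 (chr7:30415670-30417382, plus strand), in Fcer1g codons 65 to 79 in coding exons 4 and 5 (chr1:171229889-171230072, minus strand), in Hcst codons 72 to 75 in coding exon 4 (chr7:30417821-30417832, minus strand) and in Slamf7 codons 300 to 305 in coding exon 7 (chr1:171636327-171636344, minus strand). A coordinate range across 2 exons includes the intron, which is not printed.
Tyrobp, activation motif: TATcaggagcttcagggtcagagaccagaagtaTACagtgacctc
Fcer1g, activation motif: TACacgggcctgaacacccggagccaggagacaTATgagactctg
Hcst, PI3K-binding motif: TACatcaacatg
Slamf7, switch motif: acatttTATtccactgtg
Tyrobp and Fcer1g each held a pair of marked codons and Hcst and Slamf7 a lone one. The activation motif was searched as a tyrosine followed after any 2 residues by leucine or isoleucine, and the same again after 6 to 8 residues. The PI3K-binding motif was searched as tyrosine, any residue, asparagine and methionine, and the switch motif as threonine, any residue, tyrosine, any 2 residues and valine or isoleucine. Among 21767 coding genes, the pattern used to find the activation motif occurred in 618 (2.84%), that of the PI3K-binding motif in 282 (1.3%) and that of the switch motif in 1696 (7.79%), so that a match of letters is not by itself a working motif. No match to any of these patterns was found in the coding sequence of Syk, Clnk, Sh2d1a, Sh2d1b1, Sh2d1b2 or Sh2d2a.

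Sh2d1b1 and Sh2d1b2 are neighbouring paralogues, and their letters are shown because they bear on how far their counts can be told apart. Their 396 coding bases were identical at 90.7% of positions, with 37 mismatches, and the first 154 bases did not differ. The stretch from coding base 151 to 396 is printed for each, with every base that differs from the paralogue in capitals (Sh2d1b1, chr1:170279800-170284677; Sh2d1b2, chr1:170248149-170251584; both on the plus strand, 3 exons joined).
Sh2d1b1: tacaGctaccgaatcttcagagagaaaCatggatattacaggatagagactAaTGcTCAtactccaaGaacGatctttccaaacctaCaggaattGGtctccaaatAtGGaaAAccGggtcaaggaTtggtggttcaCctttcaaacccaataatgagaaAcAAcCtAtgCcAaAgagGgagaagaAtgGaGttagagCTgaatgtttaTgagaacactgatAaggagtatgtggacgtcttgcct
Sh2d1b2: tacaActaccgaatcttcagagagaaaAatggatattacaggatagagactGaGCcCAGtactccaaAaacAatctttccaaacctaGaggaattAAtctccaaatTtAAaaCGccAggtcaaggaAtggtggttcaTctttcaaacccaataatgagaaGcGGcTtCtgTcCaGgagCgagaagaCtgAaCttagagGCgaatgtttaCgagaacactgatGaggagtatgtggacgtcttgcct
Of the 2445 windows of 100 bases along the Sh2d1b1 transcript, 178 (7.28%) also occurred in the Sh2d1b2 transcript. Reads within such windows match both genes, and how the authors assigned them is not given in the sources used here, so the split of counts between the pair is uncertain.

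The libraries held between 14034479 and 15866216 counts, so that 3 counts, the most that a count of 0 allows, corresponded to 0.189 to 0.214 CPM (counts scaled to the library total). This limit covers counting error only. Scd1 itself held 4272, 3074 and 3761 counts in WT replicates 1 to 3 and 30, 36 and 20 in Scd-1-/- replicates 1 to 3, and its log2 fold change of -7.04 (SE 0.28, adjusted p = 0.00011, edgeR's quasi-likelihood test) matched the genotype labels. CD8 T cell markers summed to between 5404 and 5859 CPM in WT and between 5416 and 5607 CPM in Scd-1-/- libraries, led by Thy1. None of the 10 markers was past the thresholds, but Cd8a had 43.2, 47.6 and 47.1 FPKM in WT against 36.6, 27.9 and 33.7 FPKM in Scd-1-/- replicates 1 to 3 (log2 fold change -0.46, SE 0.14, adjusted p = 0.30, edgeR), and the groups did not overlap. Cd5 (-0.44, SE 0.15) also had no overlap, and Cd8b1 was fitted lower (-0.30, SE 0.18) with overlap, all 3 named after their values were seen. Replicate 1 of both genotypes stood apart on the first principal component, which held 42.3% of the variance, while the second, with 36.2%, separated the genotypes. The members and the lists of genes are therefore also given for replicates 2 and 3 alone where a count of calls moves.

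Fold changes are log2 values of Scd-1-/- over WT from edgeR on the deposited counts, levels are deposited FPKM (fragments scaled by gene length and library total), and the thresholds are the cut-offs the study used, an unadjusted p under 0.001 together with a log2 fold change of 1 or more in either direction. Since the members were chosen with this contrast in view, their fold changes carry no p-value here and are descriptions. The levels of Tyrobp, Fcer1g, Clnk and Sh2d1b1 were several-fold higher in the Scd-1-/- libraries, Sh2d1b2 was counted in Scd-1-/- libraries alone, Sh2d1a was moderately higher, and Hcst, Syk, Sh2d2a and Slamf7 had overlapping groups. A mean FPKM of at least 1 was reached by 8 of the 10 members, and 4 of them (Tyrobp, Fcer1g, Clnk and Sh2d1b1) lay past the thresholds, all higher, against 0.499% of the 9627 genes tested that were past the thresholds and higher (0.738% in either direction). In 6 of 10 members all Scd-1-/- libraries lay above all WT libraries, against 6.31% of the 17192 genes with a count. Nothing is read from either count, as the choice of members rests on the same contrast. In bulk RNA, fewer or more cells that express a gene and less or more RNA per cell cannot be told apart.

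**Figure D1:**
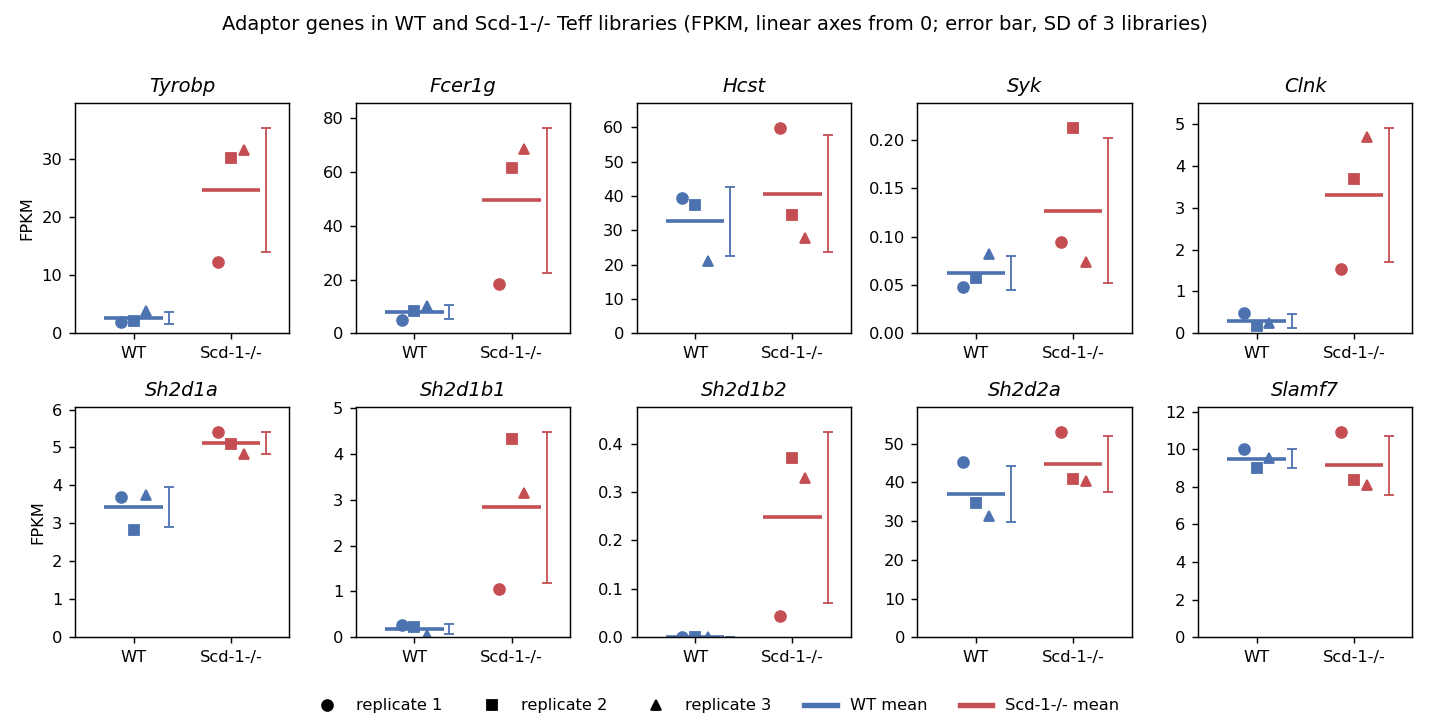
FPKM of the 10 adaptor genes (y axes, linear, each with its own scale) in WT (blue) and Scd-1-/- (red) libraries (x axes), with the replicate number as the symbol, the mean as a line and the SD of 3 libraries as an error bar. Tyrobp ran from 1.99 to 3.86 in WT and from 12.3 to 31.5 in Scd-1-/-, whereas Slamf7, Hcst, Sh2d2a and Syk overlapped between the genotypes.

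Tyrobp (ENSMUSG00000030579, chr7:30413760-30417585, plus strand) codes for DAP12, the ITAM adaptor of activating Ly49 and CD94 receptors on NK cells and of TREM receptors on myeloid cells. Its level was 1.99, 2.15 and 3.86 FPKM in WT replicates 1 to 3, from 17, 17 and 31 counts. In Scd-1-/- replicates 1 to 3 it was 12.3, 30.0 and 31.5 FPKM, from 108, 239 and 282 counts. Every Scd-1-/- library lay above every WT library, and Scd-1-/- replicate 1 was the lowest of its group. The mean went from 2.67 ± 1.04 to 24.6 ± 10.7 FPKM (SD, n = 3 each), a 9.23-fold ratio of means, and the fitted log2 fold change was 3.23 (SE 0.45). Leaving out 1 library at a time gave log2 fold changes between 3.00 and 3.57, and the gene stayed past the thresholds in 5 of 6 such fits, the exception being the fit without WT replicate 2.

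Fcer1g (ENSMUSG00000058715, chr1:171229572-171234365, minus strand) codes for the gamma chain shared by the activating Fc receptors, the high-affinity IgE receptor and some NK receptors. It was counted 123, 186 and 235 times in WT replicates 1 to 3, which is 5.05, 8.26 and 10.3 FPKM. Scd-1-/- replicates 1 to 3 had 460, 1393 and 1742 counts, or 18.4, 61.5 and 68.4 FPKM. The groups did not overlap, and replicate 1 was the lowest library within each genotype. Means were 7.87 ± 2.64 FPKM in WT against 49.4 ± 27.1 FPKM in Scd-1-/- libraries (SD, n = 3 each), with a log2 fold change of 2.68 (SE 0.50). The fold change lay between 2.37 and 3.07 with 1 library left out, but the gene remained past the thresholds in only 1 of 6 such fits, the one without Scd-1-/- replicate 1.

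Hcst (ENSMUSG00000064109, chr7:30417712-30419854, minus strand) codes for DAP10, which pairs with NKG2D (Klrk1) and lies tail to tail with Tyrobp, 127 bases away. Its level was 39.4, 37.3 and 21.1 FPKM in WT replicates 1 to 3 and 60.0, 34.4 and 27.8 FPKM in Scd-1-/- replicates 1 to 3. The groups overlapped, and replicate 1 was the highest library in each. The log2 fold change was 0.34 (SE 0.36), and it was -0.06 without Scd-1-/- replicate 1. The fitted difference of Hcst was within its standard error.

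Syk (ENSMUSG00000021457, chr13:52583173-52648792, plus strand), the tandem SH2 kinase that binds phosphorylated ITAMs in B, NK and myeloid cells, was near the detection limit. Between 10 and 16 counts were found in WT libraries and 20, 41 and 16 in Scd-1-/- replicates 1 to 3, or 0.0627 ± 0.0177 and 0.127 ± 0.0751 FPKM (SD, n = 3 each). WT replicate 3 lay above Scd-1-/- replicate 3, so the groups overlapped, and Scd-1-/- replicate 2 was the highest of all. Its log2 fold change of 1.02 (SE 0.54) came from the fit to all genes with a count, since its level is under the FPKM minimum. It was 0.44 without Scd-1-/- replicate 2.

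Clnk (ENSMUSG00000039315, chr5:38706462-38876812, minus strand) codes for a cytokine-dependent relative of the scaffolds SLP-76 (Lcp2) and BLNK. In WT replicates 1 to 3 it was counted 13, 4 and 6 times, equal to 0.491, 0.163 and 0.241 FPKM. In Scd-1-/- replicates 1 to 3 the counts were 42, 91 and 130, equal to 1.54, 3.69 and 4.69 FPKM. The lowest Scd-1-/- library, replicate 1, exceeded the highest WT library. Means were 0.298 ± 0.171 and 3.31 ± 1.61 FPKM (SD, n = 3 each) with a log2 fold change of 3.46 (SE 0.57), and it ranged from 3.11 to 4.04 with 1 library left out, past the thresholds in 2 of 6 fits (without WT replicate 1 and without Scd-1-/- replicate 1). The antisense gene Clnkos overlaps Clnk, but it had 0 counts in all 6 libraries, and whether the counting used strand is not given in the sources used here.

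Sh2d1a (ENSMUSG00000005696, chrX:42502453-42529330, plus strand) codes for SAP, which links SLAM family receptors to the kinase Fyn and is normally expressed in T cells. WT replicates 1 to 3 had 3.69, 2.82 and 3.75 FPKM and Scd-1-/- replicates 1 to 3 had 5.42, 5.10 and 4.82 FPKM, from at least 300 counts in every library. All Scd-1-/- values were above all WT values. The log2 fold change was 0.60 (SE 0.17), under the fold threshold of 1, and it lay between 0.48 and 0.68 with 1 library left out. Its end overlaps Tenm1 on the other strand, which had 0 counts in these libraries.

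Sh2d1b1 (ENSMUSG00000102418, chr1:170277320-170286769, plus strand) codes for EAT-2, the SAP relative of NK cells and antigen-presenting cells. It was counted 10, 8 and 2 times in WT replicates 1 to 3 and 42, 155 and 127 times in Scd-1-/- replicates 1 to 3. The corresponding levels were 0.259, 0.224 and 0.0553 FPKM in WT replicates 1 to 3 against 1.06, 4.32 and 3.15 FPKM in Scd-1-/- libraries. Every Scd-1-/- library was higher than every WT library, with replicate 1 again the lowest of the Scd-1-/- group. The log2 fold change was 3.97 (SE 0.68), from 3.53 to 4.36 with 1 library left out, and was past the thresholds in 1 of 6 such fits (without Scd-1-/- replicate 1).

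Sh2d1b2 (ENSMUSG00000073494, chr1:170232749-170253608, plus strand) codes for ERT, the mouse paralogue of EAT-2. It had 0 counts in all 3 WT libraries and 2, 15 and 15 counts in Scd-1-/- replicates 1 to 3, a mean of 0.248 ± 0.177 FPKM (SD, n = 3). With each WT library set to the limit of 3 counts, the mean CPM in Scd-1-/- libraries was at least 3.43-fold higher. Scd-1-/- replicate 1 itself was under that limit. In the fit to all genes with a count, neither Sh2d1b2 nor Syk was past the thresholds, which 0.861% of those genes were. Sh2d1b2 was past them with DESeq2 and when Scd-1-/- replicate 1 was left out.

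Sh2d2a (ENSMUSG00000028071, chr3:87846755-87855722, plus strand) codes for TSAd, a T cell adaptor that binds Lck. Its levels of 45.2, 34.6 and 31.2 FPKM in WT replicates 1 to 3 and 53.1, 40.8 and 40.3 FPKM in Scd-1-/- replicates 1 to 3 overlapped, and replicate 1 was the highest in both genotypes. The log2 fold change was 0.29 (SE 0.19). In each same-numbered pair the Scd-1-/- library was the higher, and with the replicate block the log2 fold change was 0.30 (SE 0.093), also under the fold threshold. Slamf7 (ENSMUSG00000038179, chr1:171632403-171653035, minus strand) codes for CRACC, the SLAM family receptor that signals through EAT-2. Its levels of 9.99, 8.99 and 9.51 FPKM in WT replicates 1 to 3 and 10.9, 8.39 and 8.11 FPKM in Scd-1-/- replicates 1 to 3 overlapped as well, with a log2 fold change of -0.03 (SE 0.17) that turned positive in 3 of the 6 fits with 1 library left out. Its groups overlapped, whereas those of its adaptor gene Sh2d1b1 did not, and this difference between the genes was not tested.

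**Figure D2:**
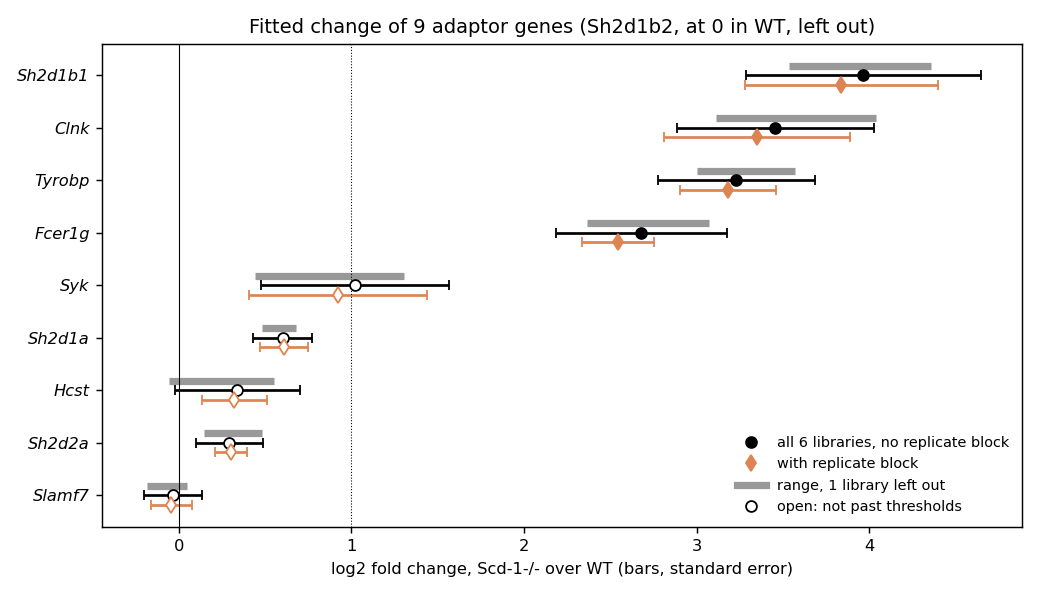
Log2 fold change of Scd-1-/- over WT (x axis) for 9 members (y axis), with standard errors, from all 6 libraries without (black) and with (orange) the replicate number as a block, and the range with 1 library left out (grey bars); filled symbols are past the thresholds, and Sh2d1b2 is left out because WT libraries had 0 counts. Sh2d1b1, Clnk, Tyrobp and Fcer1g lay between 2.68 and 3.97, while Slamf7 and Hcst lay near 0.

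Tyrobp, Fcer1g, Clnk and Sh2d1b1 were also past the thresholds with the replicate number as a block in the fit (1.19% of tested genes were past them and higher), with blocked log2 fold changes of 3.18 for Tyrobp, 2.54 for Fcer1g, 3.35 for Clnk and 3.84 for Sh2d1b1. With replicates 2 and 3 alone, the log2 fold change was 3.39 for Tyrobp, 2.85 for Fcer1g, 4.38 for Clnk and 4.74 for Sh2d1b1, and Sh2d1b2 was past the thresholds as well, while 2.25% of all tested genes were past them and higher. The 5 members whose Scd-1-/- levels lay farthest from WT thus had their lowest Scd-1-/- value in replicate 1. Across the 6 libraries, Pearson's r of log2 CPM was 0.98 between Tyrobp and Fcer1g, 0.95 between Tyrobp and Clnk, 0.95 between Clnk and Sh2d1b1 and 0.03 between the adjacent Tyrobp and Hcst. These values include the difference between genotypes and the position of replicate 1, and are descriptions.

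The order of the levels also differed between genotypes. In WT, Sh2d2a (37.0 ± 7.26 FPKM) and Hcst (32.6 ± 10.0 FPKM) came first and their ranges overlapped, followed by Slamf7 (9.50 ± 0.502 FPKM) and Fcer1g, which overlapped each other, then by Sh2d1a and Tyrobp, which also overlapped. Clnk, Sh2d1b1 and Syk followed under 1 FPKM, each overlapping its neighbour, and Sh2d1b2 was last at 0. In Scd-1-/- libraries Fcer1g had the highest mean but its range overlapped those of Sh2d2a (44.7 ± 7.28 FPKM) and Hcst (40.7 ± 17.0 FPKM) next to it in the order. Tyrobp came next and overlapped Hcst, but lay above Slamf7 (9.14 ± 1.56 FPKM) without overlap, and Sh2d1a followed at 5.12 ± 0.300 FPKM.

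Since FPKM is scaled by gene length, members can be set against genes of the same role within a library. Tyrobp and Fcer1g together made up 0.473%, 0.884% and 1.19% of the summed FPKM of 6 ITAM chains (Cd3e, Cd3d, Cd3g, Cd247, Tyrobp and Fcer1g) in WT replicates 1 to 3 and 2.26%, 7.10% and 7.63% in Scd-1-/- replicates 1 to 3. The CD3 chains thus held most of the ITAM transcripts in every library. Against Cd247 alone, the level of Fcer1g was 11.1%, 24.2% and 30.5% in WT and 40.2%, 196% and 192% in Scd-1-/- replicates 1 to 3, so that its FPKM exceeded that of Cd247 in Scd-1-/- replicates 2 and 3. This order rests on the gene lengths behind the FPKM, since Cd247 had more counts there (3659 and 4674 against 1393 and 1742 for Fcer1g). Tyrobp relative to Hcst was 5.05%, 5.75% and 18.3% in WT and 20.5%, 87.4% and 113% in Scd-1-/- libraries. These groups did not overlap either, but the highest WT and the lowest Scd-1-/- library lay close.

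Clnk made up 1.38%, 0.593% and 0.910% of the summed FPKM of Clnk, Lcp2 and Blnk in WT replicates 1 to 3 and 4.23%, 10.1% and 12.7% in Scd-1-/- replicates 1 to 3, where Blnk was at 0 counts in all 6 libraries. Among the 3 Sh2d1 genes, Sh2d1b1 and Sh2d1b2 together took 6.55%, 7.36% and 1.45% in WT and 16.9%, 47.9% and 41.9% in Scd-1-/- libraries. Sh2d1a remained the larger part of this family in all 6 libraries. Syk was at most 0.240% of the summed FPKM of Syk and Zap70 in any library, the rest being Zap70.

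**Figure D3:**
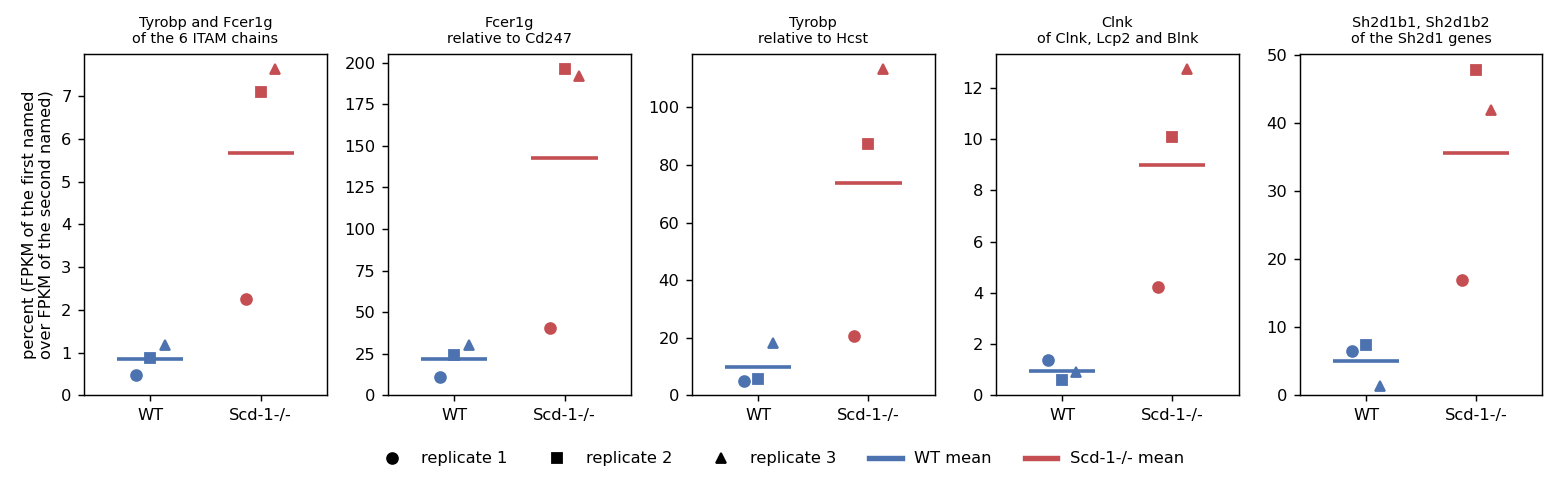
Share or ratio of member levels to genes of the same role, in percent of FPKM (y axes, linear, from 0), in WT (blue) and Scd-1-/- (red) libraries (x axes), with the replicate number as the symbol and the mean as a line. Tyrobp and Fcer1g took from 0.473% to 1.19% of the 6 ITAM chains in WT and from 2.26% to 7.63% in Scd-1-/- libraries.

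Genes known to work with the adaptors were then read from the same fit over all genes. Of 117 listed, 115 had a row, 100 had a count, 71 reached the FPKM minimum, and 4 were past the thresholds and higher (Klre1, Ubash3b, Lyn and Cd244) and 0 lower, against 0.738% of all tested genes. The median log2 fold change of the 71 genes was 0.01, beside -0.0005 over all 9627 genes, with 36 fitted higher and 35 lower. Without the block none of the 4 reached an adjusted p of 0.05 (edgeR's quasi-likelihood test, Benjamini-Hochberg over all tested genes), which 11 genes in all did (0.114%). With the replicate block all 4 did, with adjusted p of 0.013 for Klre1, 0.0098 for Ubash3b, 0.020 for Lyn and 0.017 for Cd244 (edgeR), as did 452 genes in all (4.7%). In the fit without the block, 0 of them were past the thresholds when replicate 2 or replicate 3 of either genotype was left out. With the replicate block 9 partner genes were past the thresholds, beside 1.91% of all tested genes, and with replicates 2 and 3 alone 12 were, beside 3.83%.

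A list of 34 genes was made by name for activating receptors that pair with Tyrobp, Fcer1g or Hcst. Of these, 32 had a row, of which 10 were at 0 in all libraries, 16 lay under the FPKM minimum and 6 were tested. Klre1, a lectin-like receptor chain of NK cells, had 1.71, 0.688 and 0.761 FPKM in WT replicates 1 to 3 and 4.11, 4.72 and 5.41 FPKM in Scd-1-/- replicates 1 to 3. Its log2 fold change was 2.18 (SE 0.38, adjusted p = 0.091, edgeR). The other 5 were not past the thresholds, although all 6 were fitted higher, with a median log2 fold change of 1.56 beside -0.0005 over all genes. These 6 are not all activating receptors, since Klra9 (log2 fold change 1.21, SE 0.48) codes for an inhibitory Ly49 receptor in C57BL/6 mice. Klra4 and Klra8 of the list had at most 2 counts in any library. With the replicate block 4 of the 6 passed, as did 4 with replicates 2 and 3 alone. The highest level in the list was that of Klrk1 (NKG2D), the partner of Hcst, with 9.89 ± 2.17 FPKM in WT against 10.8 ± 2.13 FPKM in Scd-1-/- libraries (log2 fold change 0.14, SE 0.22). Pilrb1, an activating paired receptor that signals through Tyrobp, followed at 2.01 ± 0.307 and 6.32 ± 2.92 FPKM, with a log2 fold change of 1.68 (SE 0.39, adjusted p = 0.18, edgeR, and 0.018 with the replicate block). Counts of such receptors can be split between near-identical copies, which leaves their values uncertain.

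The antigen receptor ITAM chains gave no gene past the thresholds among 5 tested, and 1 past and lower with replicates 2 and 3 alone. Cd3g and Cd3d, the most abundant, had log2 fold changes of -0.01 (SE 0.13) and -0.03 (SE 0.16). Cd79b, a B cell receptor chain named after its values were seen, had 10.7, 9.41 and 10.3 FPKM in WT against 7.90, 3.13 and 3.68 FPKM in Scd-1-/- replicates 1 to 3 without overlap (log2 fold change -1.02, SE 0.35, adjusted p = 0.39, edgeR, and 0.043 with the replicate block). Of 17 tested kinases and phosphatases of the ITAM route, 2 were past the thresholds and both were higher. Lyn, a Src family kinase of B and myeloid cells, had 0.783, 0.482 and 0.687 FPKM in WT replicates 1 to 3 and 1.48, 2.12 and 2.46 FPKM in Scd-1-/- replicates 1 to 3 (log2 fold change 1.65, SE 0.30, adjusted p = 0.093, edgeR). Ubash3b, a phosphatase that restrains signalling by Syk and Zap70, went from 3.96 ± 0.477 to 8.39 ± 0.730 FPKM (SD, n = 3 each, log2 fold change 1.10, SE 0.16, adjusted p = 0.068, edgeR). Lck and Csk, the most abundant genes of the list, had log2 fold changes of 0.02 (SE 0.15) and -0.31 (SE 0.13), and neither was past the thresholds.

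None of 22 tested SLP-76 family genes and partners, none of 10 tested genes of the Hcst and PI3K route and none of 5 other tested adaptors of the SH2D and SH2B families was past the thresholds. Their median log2 fold changes were -0.04, 0.02 and -0.02, with the block 1, 1 and 0 passed, and with replicates 2 and 3 alone 2, 1 and 1 did. The most abundant genes were Was (-0.04, SE 0.12) and Dbnl (-0.27, SE 0.12) in the SLP-76 list, Akt1 (-0.01, SE 0.16) and Pik3cd (-0.26, SE 0.22) in the PI3K list, and Sh2d3c (0.23, SE 0.14) and Sh2b1 (-0.16, SE 0.15) in the last list. Of 6 tested SLAM family receptors beside Slamf7, Cd244 (2B4), which binds SAP and EAT-2, was past the thresholds. It had 2.81, 1.08 and 1.42 FPKM in WT replicates 1 to 3 and 5.94, 8.42 and 7.81 FPKM in Scd-1-/- replicates 1 to 3 (log2 fold change 2.07, SE 0.37, adjusted p = 0.092, edgeR). Cd48, the ligand of 2B4, had a log2 fold change of 0.70 (SE 0.20) and Ly9 one of -0.19 (SE 0.18), and neither passed.

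**Figure D4:**
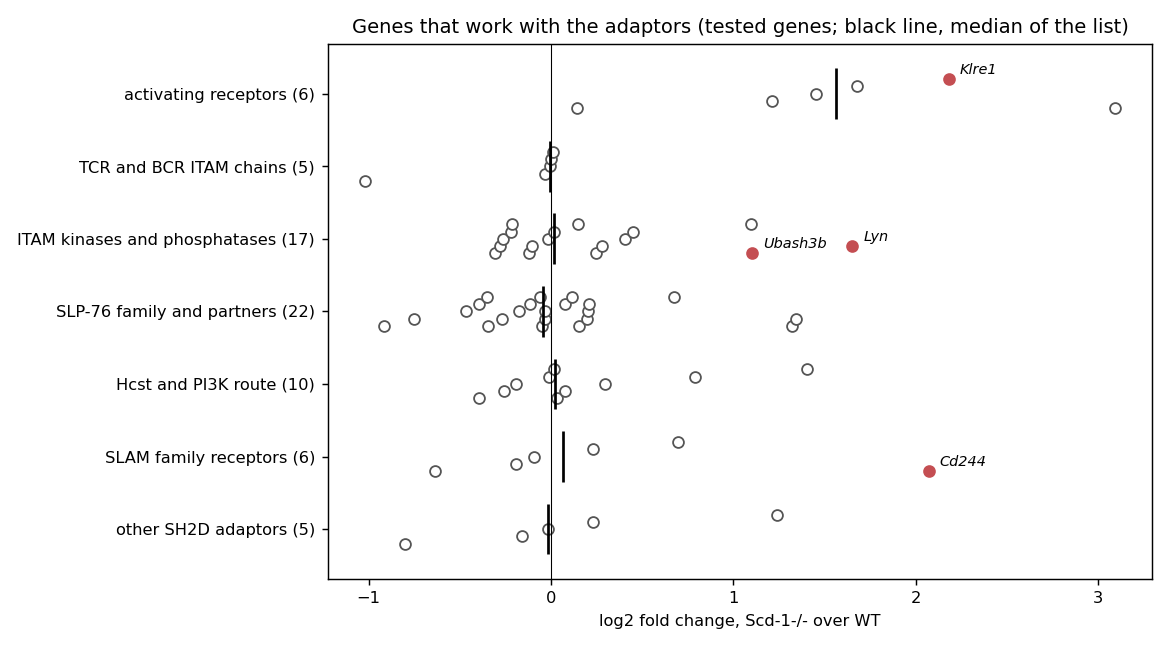
Log2 fold change of Scd-1-/- over WT (x axis) of the tested genes of 7 lists of partners (y axis, number of tested genes in brackets), with the median as a black line and genes past the thresholds filled in red and named. Klre1, Lyn, Ubash3b and Cd244 were past the thresholds, and all 6 tested genes of the activating receptor list lay above 0.

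For the members with the largest fitted differences, the genes whose log2 CPM followed them most closely over the 6 libraries were listed, among 9619 genes. They were Plcg2 (r = 0.994), Samd3 (0.994) and Mplkip (0.993) for Tyrobp, and Tmem40 (0.999), Anxa1 (0.997) and Cdkn2b (0.997) for Clnk. For Sh2d1b1 they were Gpx8 (0.995), Tes3-ps (0.994) and Gm17590 (0.991). For Sh2d1b2, at 0 in WT, they were Gzmc (0.998), Id2 (0.995) and Capn2 (0.994). Such values rest on 6 points that share the genotype difference and the position of replicate 1, and r was over 0.95 for between 52 and 124 genes per member.

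Fcer1g, Sh2d1b1, Sh2d1b2 and Slamf7 lie within 1420 kb of chromosome 1 (chr1:170232749-171653035), a stretch that holds 48 other genes of the files. Of these, 18 were tested and 1, Cd244, was past the thresholds, with a median log2 fold change of 0.01. With the replicate block or with replicates 2 and 3 alone 2 of the 18 passed, and none did when replicate 2 or 3 of either genotype was left out. Sdhc, among the most abundant of the 18, had a log2 fold change of -0.03 (SE 0.11). Of the 18 tested genes, 9 were fitted higher and 9 lower.

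**Figure D5:**
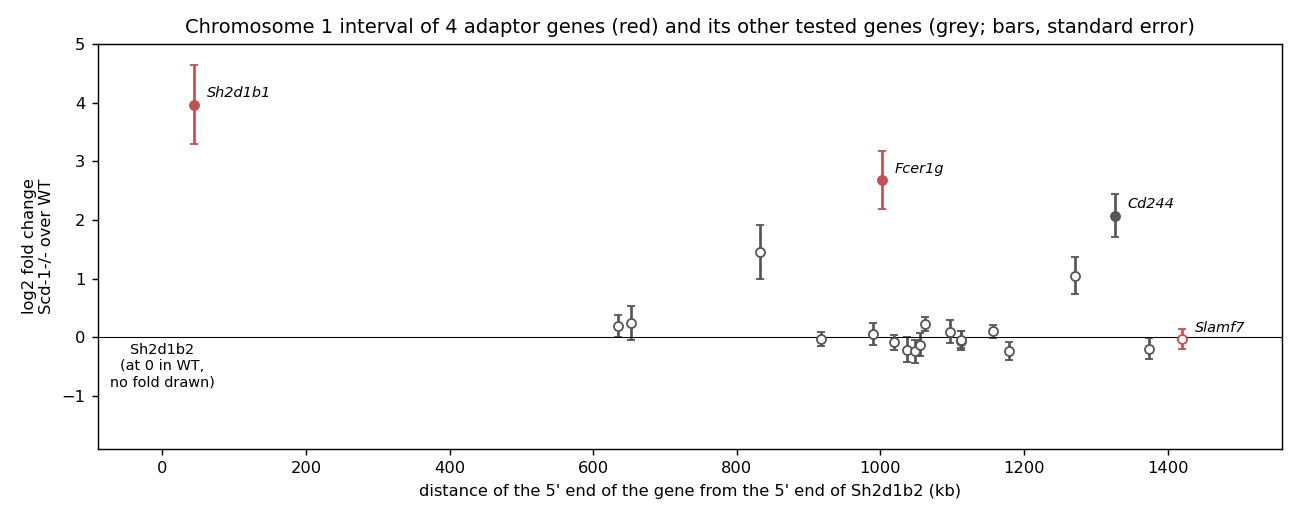
Log2 fold change of Scd-1-/- over WT with its standard error (y axis) against distance in kb from the 5′ end of Sh2d1b2 (x axis) for members (red) and the other 18 tested genes (grey) of the chromosome 1 stretch; filled symbols are past the thresholds. Sh2d1b1, Fcer1g and Cd244 stand above 2, while Slamf7 and most neighbours lie near 0.

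Promoter sequence was available from RefSeq (GRCm38.p6) for 7 of the 10 members, in 8 windows of 250 bases before a gene start (Syk has 2 starts), and is shown for 3 of the members that moved together. Each is printed on the gene's strand, shortened where the window runs into annotated exons, with the matches to 4 short motifs in capitals on either strand (ETS, AGGAAG; RUNX, TGTGGT; T-box, GGTGTG; TCF/LEF, CTTTGA).
Clnk, chr5:38876813-38876943, minus strand: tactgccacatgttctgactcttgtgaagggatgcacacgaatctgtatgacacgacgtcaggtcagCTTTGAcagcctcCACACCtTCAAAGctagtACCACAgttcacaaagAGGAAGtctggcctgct
Fcer1g, chr1:171234366-171234599, minus strand: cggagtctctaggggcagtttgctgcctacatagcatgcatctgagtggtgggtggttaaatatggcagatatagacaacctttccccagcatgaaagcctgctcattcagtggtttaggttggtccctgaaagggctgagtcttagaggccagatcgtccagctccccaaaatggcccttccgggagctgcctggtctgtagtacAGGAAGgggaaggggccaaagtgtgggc
Sh2d1b1, chr1:170277068-170277317, plus strand: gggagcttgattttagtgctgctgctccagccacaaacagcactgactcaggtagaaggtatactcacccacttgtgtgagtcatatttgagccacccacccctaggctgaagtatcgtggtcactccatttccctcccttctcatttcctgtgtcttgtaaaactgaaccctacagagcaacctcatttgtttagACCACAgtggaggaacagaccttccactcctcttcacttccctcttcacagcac
The ETS letters occurred in 4 of the 8 whole member windows and in 29.5% of 32851 windows of 250 bases, the RUNX letters in 3 and 14%, the T-box letters in 3 and 16.3%, and the TCF/LEF letters in 2 and 13.8%. The Clnk window held all 4, that of Fcer1g the ETS letters and that of Sh2d1b1 the RUNX letters, so that the last pair had none in common. A match of letters is not a binding site, and no binding was measured here.

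Tyrobp, Fcer1g and Sh2d1b1 are also expressed by cell types that an enriched CD8+ culture could hold, and their markers were measured beside them. The 12 NK cell markers all had a count and summed to between 519 and 777 CPM in WT and between 1084 and 1143 CPM in Scd-1-/- libraries, mostly from Nkg7, which T cells also express. Of 8 tested, none was past the thresholds, but all 8 were fitted higher, with a median log2 fold change of 1.55. Past the thresholds and higher were 4 with the replicate block (1.19% of all tested genes) and 6 with replicates 2 and 3 alone (2.25%). Of the 8, 7 had every Scd-1-/- library above every WT library, beside 6.31% of genes with a count. Itga2 (CD49b), under the FPKM minimum, had 49, 21 and 9 counts in WT against 34, 31 and 7 in Scd-1-/- replicates 1 to 3 (log2 fold change -0.15, SE 0.68). Klrb1c (NK1.1), chosen after its values were seen, had 0.501, 0.804 and 0.938 FPKM in WT replicates 1 to 3 and 1.66, 9.39 and 7.79 FPKM in Scd-1-/- replicates 1 to 3 (log2 fold change 3.09, SE 0.61, adjusted p = 0.12, edgeR, and 0.0059 with the replicate block). Khdc1a, chosen in the same way, had 2, 0 and 3 counts in WT against 11, 77 and 86 in Scd-1-/- libraries. As with the 5 members above, Scd-1-/- replicate 1 was the lowest of its group for both genes. Ncr1 (NKp46), another defining NK cell marker, had 0, 4 and 5 counts in WT replicates 1 to 3 and 0, 0 and 2 in Scd-1-/- replicates 1 to 3. The gamma delta T cell markers, 6 of 7 with a count, summed to between 98.1 and 134 CPM in WT and between 205 and 459 CPM in Scd-1-/- libraries. Trdc, the constant region of the delta chain, was past the thresholds with 1.78 ± 0.720 FPKM in WT against 12.8 ± 4.66 FPKM in Scd-1-/- libraries (SD, n = 3 each, log2 fold change 2.86, SE 0.39, adjusted p = 0.063, edgeR), also in 6 of 6 fits with 1 library left out. All 4 tested genes of the list had every Scd-1-/- library above every WT library, beside 6.31% of genes with a count. All 4 were past the thresholds and higher with the replicate block (1.19% of all tested genes) and with replicates 2 and 3 alone (2.25%). Beside Trdc these were Tcrg-C1, Tcrg-C2 and Tcrg-C4, with log2 fold changes of 1.91 (SE 0.40), 1.27 (SE 0.26) and 2.17 (SE 0.47). Tcrg-C2 stood at 103 ± 15.4 FPKM in WT, well above Trdc there. Of the rest of the list, Il23r was at 0. Sox13 had 0, 0 and 1 counts in WT against 0, 3 and 0 in Scd-1-/- replicates 1 to 3, and Trdv4 had 0, 1 and 3 against 0, 4 and 0. How much of these constant region transcripts came from gamma delta T cells was not tested.

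Of 18 myeloid markers, 8 were at 0 in all libraries (Adgre1, C1qa, C1qc, Fcgr1, S100a9, Spi1, Siglech and Xcr1), and the summed level of 136 to 178 CPM in WT and 201 to 229 CPM in Scd-1-/- libraries came mainly from Cst3. Some others of the list were higher in Scd-1-/- libraries, and those named next were chosen after their values were seen. Cd14 had 11, 5 and 4 counts in WT against 28, 42 and 40 in Scd-1-/- replicates 1 to 3, and was past the thresholds in the fit to all genes with a count (log2 fold change 2.41, SE 0.52, adjusted p = 0.096, edgeR). Itgax had 219, 39 and 49 counts in WT against 678, 186 and 157 in Scd-1-/- replicates 1 to 3, with overlapping groups (log2 fold change 1.69, SE 0.78), and was past the thresholds with the replicate block (adjusted p = 0.0059, edgeR). With replicates 2 and 3 alone 1 of the 2 tested myeloid markers passed and was higher. Not all of the list went this way. Itgam had 2 rows that were fitted in opposite directions (log2 fold changes 2.35, SE 0.97, and -0.83, SE 0.94). Lyz2, Csf1r and S100a8 had at most 4 counts in any library. Mast cell and basophil markers summed to between 3.92 and 13.4 CPM in WT and between 7.13 and 17.9 CPM in Scd-1-/- libraries, with Ms4a2, Prss34 and Mcpt4 at 0. Kit, which led this sum in CPM but not in FPKM, was fitted lower (log2 fold change -0.86, SE 0.48), while Mcpt8, chosen after its values were seen, had 5, 9 and 3 counts in WT against 8, 110 and 125 in Scd-1-/- replicates 1 to 3 with a log2 fold change of 3.77 (SE 0.98) that was not past the thresholds without the replicate block and was past them with it. With replicates 2 and 3 alone both tested mast cell markers passed. Cma1, chosen likewise, had 0 counts in WT and 8, 11 and 25 in Scd-1-/- replicates 1 to 3, and was past the thresholds in the fit to all genes with a count but not with the block. Mcpt8 (chr14:56082166-56085273) and Cma1 (chr14:55941451-55944675) lie near each other on the minus strand. Fcer1a, another marker of the list, had at most 3 counts in any library. Which cells the counts of Mcpt8 and Cma1 came from was not tested. B cell markers summed to between 324 and 598 CPM in WT and between 216 and 324 CPM in Scd-1-/- libraries, led by Ighm. Ighm had 192 ± 62.0 FPKM in WT against 112 ± 23.5 FPKM in Scd-1-/- libraries, with overlapping groups (log2 fold change -0.77, SE 0.27). Its adjusted p was 0.39, and 0.026 with the replicate block (edgeR). Ms4a1, Pax5 and Blnk were among the B cell markers at 0, and with replicates 2 and 3 alone 1 of the 2 tested passed and was lower. CD4 T cell markers summed to between 383 and 463 CPM in WT and between 407 and 480 CPM in Scd-1-/- libraries, nearly all of it from Ctla4, which activated CD8+ T cells also express. Cd4 itself had 8, 24 and 12 counts in WT and 5, 2 and 1 in Scd-1-/- replicates 1 to 3. The part of the NK, gamma delta T, myeloid and mast cell markers in the values of Tyrobp, Fcer1g, Clnk, Sh2d1b1 and Sh2d1b2 was not tested.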

How the data were processed

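RNA-seq was performed on CD8+ Teff from WT and Scd-1-/- mice (3 libraries each), grouped by genotype label. Per the labels and methods, the authors mapped reads with HISAT2 (GRCm38) and counted them with StringTie 1.3.0. The sources differ on the RNA and library kits (a stranded total RNA kit against Trizol with a VAHTS kit). The authors deposited raw counts per gene and FPKM, which differed from the counts only by gene length and total, with no TMM factor in it. edgeR 4.0.16 (R 4.3.3) was fitted to counts with TMM scaling, without a block, on the 9627 genes whose mean FPKM reached 1. Values of genes below that minimum came from a second fit on every gene that had a count (17192). DESeq2 1.42.0 and limma 3.58.1 were alternatives, and all were tested on simulated data. The SE is the log2 fold change divided by the root of F.

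The members and lists were chosen with earlier results of these data known. Named were all members, in each list the genes past the thresholds and the 2 most abundant, the 3 closest genes of 4 members, and defining markers. Same-numbered samples deviated together (r = 0.583, 0.297 and 0.459 for replicates 1, 2 and 3), which is taken as pairing, although WT replicate 3 with Scd-1-/- replicate 2 gave 0.357, WT replicate 2 with Scd-1-/- replicate 3 gave 0.173, and the labels do not explain the numbers. An exact permutation test of 3 libraries against 3 cannot give a p under 0.1. Coordinates are from GENCODE M21 (GRCm38), matched to 98.6% of gene identifiers. Some genes of the lists are not reported here.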

Additional observations from a re-analysis of the deposited data

How the results depend on the processing

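Of the 13 alternatives, the fits that moved the counts of genes past the thresholds were these. Over all tested genes the count was 71, and 148 with no FPKM minimum, 161 with DESeq2, 184 with the replicate block, 369 with replicates 2 and 3 only, and 25 to 163 with 1 library left out. Genes with an adjusted p under 0.05 numbered 11, and 84, 266, 452, 1213 and 2 to 182 under the same settings, and 17 with limma on log2(FPKM + 1). Members past the thresholds numbered 4, also with the replicate block, 2 with limma on log2(FPKM + 1), where Fcer1g and Sh2d1b1 were lost, and 0 to 5 with 1 library left out (for WT 2, 0 and 1 without replicates 1, 2 and 3, and for Scd-1-/- 5, 1 and 1). Partner genes numbered 4, and 8 with no FPKM minimum, 10 with DESeq2, 2 with limma on log2(FPKM + 1), 9 with the replicate block, 12 with replicates 2 and 3 only and 0 to 9 with 1 library left out. The chromosome 1 neighbours numbered 1, and 2 with the block or with replicates 2 and 3 only, and 0 to 1 with 1 library left out. With 1 library left out, the log2 fold change of Hcst ran from -0.055 (without Scd-1-/- replicate 1, where the sign turned) to 0.55, and that of Slamf7 from -0.18 to 0.045, where the sign turned without WT replicate 1 (0.023) and without replicate 2 (0.025) or 3 (0.045) of Scd-1-/-. The cause was not tested. The log2 fold changes of the other 8 members kept their sign in all 13 alternatives. Under limma on log2(FPKM + 1), which understates changes at low levels, those of Clnk and Sh2d1b1 shrank from 3.46 to 1.66 and from 3.97 to 1.60, that of Syk from 1.02 to 0.08 and that of Sh2d1b2 to 0.31. Low counts limit Syk, Sh2d1b2 and the WT values of Clnk and Sh2d1b1.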
